A study of Mus musculus with 12 samples.

Results

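Genes of lymphoid priming and of the B and T lineages were followed in bone marrow of mice with MLL-ENL leukemia and of wild-type mice. The set held 38 of the 24028 genes in 2 deposited tables of raw read counts. It was listed by symbol, matched to NCBI mouse gene IDs, and each of the 38 genes had a row in both tables. By role the set held 9 priming genes (Satb1, Notch1, Ikzf1, Ikzf2, Ikzf3, Bcl11a, Foxo1, Il7r and Bst1), 3 recombination genes (Rag1, Rag2 and Dntt), 14 B lineage genes (Ebf1, Pax5, Pou2af1, Vpreb1, Vpreb3, Igll1, Cd79a, Cd79b, Blnk, Ms4a1, Cd22, Cd72, Bank1 and Fcrla), 11 T lineage genes (Bcl11b, Cd3e, Cd3d, Cd3g, Cd247, Ptcra, Lck, Lat, Cd2, Cd5 and Cd28) and Siglech, a receptor of plasmacytoid dendritic cells.

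RNA was sequenced from 12 libraries of C57BL/6 bone marrow cells, 3 in each of 4 groups. The wt LSK group came from control mice, after lineage depletion and a sort on c-kit and Sca-1, the surface proteins of hematopoietic stem and multipotent progenitor cells. The other groups came from mice carrying iMLL-ENL, a knock-in of the leukemia fusion gene MLL-ENL that doxycycline switches on, and these mice received doxycycline until they had acute leukemia. Their marrow was taken whole (iMLL-ENL total) or sorted by FACS into B220 LOW and B220 HIGH cells, B220 being a form of the surface protein CD45 best known from B cells. The labels give 3 animals for each genotype but not which library came from which animal, so p-values measure the spread between these libraries. They give no age, no doxycycline treatment of the controls, and neither the locus nor the cell types that drive the knock-in. Genotype, doxycycline and the difference between sorted progenitors and unsorted marrow therefore cannot be told apart in the comparison of iMLL-ENL total with wt LSK. No sort is named for iMLL-ENL total, which may still hold normal marrow cells. In bulk RNA, fewer cells of a type and less RNA per cell cannot be told apart.

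Lymphoid priming is the stage at which multipotent progenitors begin to transcribe lymphoid genes before they lose other fates. Ikaros family factors, Satb1, Bcl11a and the interleukin 7 receptor act early, and Rag1, Rag2 and Dntt then cut and edit antigen receptor genes. Ebf1 and Pax5 commit cells to the B lineage and switch on the surrogate light chain and other parts of the pre-B cell receptor, whereas Notch1 and Bcl11b lead to T lineage commitment and the CD3 complex. MLL fusion leukemias can carry lymphoid as well as myeloid genes, and B220 is also found on plasmacytoid dendritic cells and on some progenitors.

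Library totals ran from 10921521 to 22706882 counts, and levels are given as CPM, a gene's count per 1000000 counts of the library total, with replicates 1, 2 and 3 in that order. The labelled cells were checked on their markers. The summed level of 8 stem and progenitor markers was 3249 to 3926 CPM in wt LSK and 187 to 499.8 CPM in the 9 leukemic libraries, and the 9 measured neutrophil and monocyte markers summed to 1427 to 2412 CPM in wt LSK and 8204 to 23758 CPM in iMLL-ENL total. Read counts of Kmt2a and Mllt1, the mouse partners of the fusion, cannot tell the fusion from the normal genes. Both were lower in each iMLL-ENL total library than in each wt LSK library. Kmt2a had 1532, 1143 and 1337 CPM in wt LSK and 566, 324 and 494 CPM in iMLL-ENL total. Mllt1 had 43.9, 44.0 and 40.1 CPM in wt LSK and 39.5, 26.2 and 34.4 CPM in iMLL-ENL total. Ptprc, which encodes CD45, stood at 610, 241 and 431 CPM in B220 LOW and 534, 599.8 and 553 CPM in B220 HIGH, and gene counts do not separate its B220 form.

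A single library stood apart for these genes in each of 2 groups. Among the members tested, wt LSK replicate 2 was the highest of its group for 32 of 35 (91.4%, against 46.5% of all genes tested), exceeded 2 times the higher of the other 2 wt LSK libraries for 21 (60%, against 4.66%) and 5 times for 9 (25.7%, against 0.941%). B220 HIGH replicate 2 was the highest of its group for 14 of 24 (58.3%, against 27.8%), exceeded 2 times the higher of the others for 7 (29.2%, against 5.97%) and 5 times for 2 (8.33%, against 1.43%). Marker sums of other cells, here without any of the 38 genes, also differed between these libraries. The 7 remaining markers of mature B and plasma cells summed to 879 CPM in wt LSK replicate 2, of which Jchain, the joining chain of secreted antibodies, gave 818, and to 27.9 and 95.8 CPM in the other wt LSK libraries. The 9 NK cell markers summed to 176 CPM in wt LSK replicate 2 against 69.3 and 78.1, and to 86.7 CPM in B220 HIGH replicate 2 against 2.11 and 0.961. Nkg7 alone gave 145 CPM of the sum in wt LSK replicate 2, against 62.7 and 72.2 in the other wt LSK libraries. In B220 HIGH replicate 2, Klrd1 gave 45.2 CPM. The 5 remaining T cell markers summed to 31.4 CPM in wt LSK replicate 2 against 14.2 and 15.3, and to 12.8 CPM in B220 HIGH replicate 2 against 0.183 and 1.77. In the other 2 B220 HIGH libraries 7 and 6 of the 9 NK markers and 3 and 3 of the 5 T markers had no count, whereas B220 HIGH replicate 2 lacked 2 and 0. Neutrophil and monocyte markers summed to 1680, 6178 and 5825 CPM in B220 LOW and to 1165, 17388 and 9485 CPM in B220 HIGH, where replicate 1 was the lowest. The part of such cells in the results below was not tested. Without wt LSK replicate 2 the median log2 change of the 35 members tested in whole marrow was -0.48 in place of -1.74, and 6 of them (Notch1, Cd79a, Cd79b, Cd22, Fcrla and Cd2) changed sign. Without B220 HIGH replicate 2 the sign changed for 3 of the 24 members tested between the sorts, Ikzf2, Cd72 and Fcrla.

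**Figure D1:**
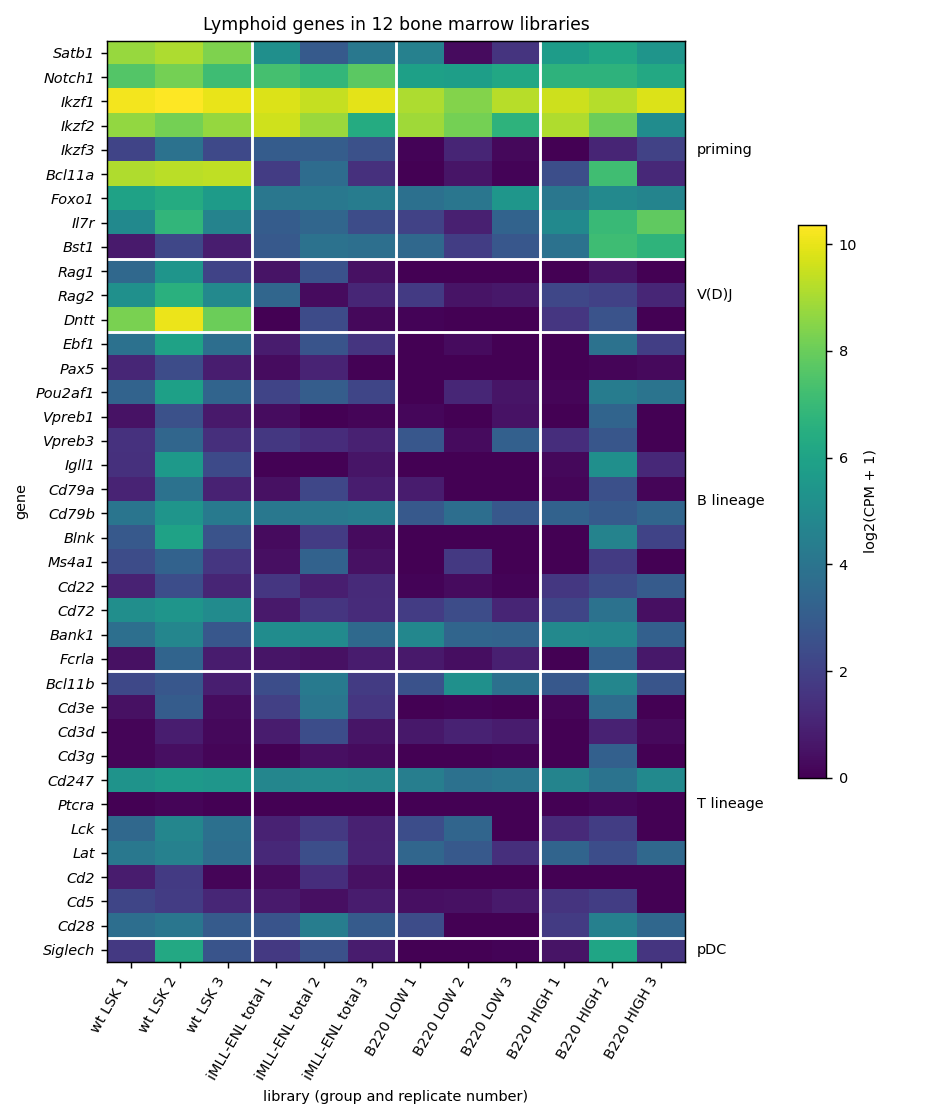
Level of the 38 genes (rows, ordered by role) in the 12 libraries (columns, ordered by group and replicate), coloured as log2(CPM + 1). Bcl11a, Satb1 and Dntt are bright in the 3 wt LSK columns and dark in iMLL-ENL total, and the second column of wt LSK and of B220 HIGH is brighter than its neighbours for many B lineage genes.

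Whole leukemic marrow held less RNA of many early lymphoid genes than wt LSK cells. Of the 38 genes, 35 passed the low count filter, and 12 of these (34.3%) were lower in iMLL-ENL total at an adjusted p under 0.05 in edgeR's quasi-likelihood test, against 15.1% of all 13811 genes tested. A single member, Bst1, was higher (2.86%, against 15.5%). The groups did not overlap, with iMLL-ENL total lower, for 16 members (45.7%, against 29.5%), and with iMLL-ENL total higher for Bst1 alone (2.86%, against 19.0%). Log2 changes are given for iMLL-ENL total over wt LSK with their standard error (SE), and log2 differences for B220 HIGH over B220 LOW. The median log2 change of the 35 members was -1.74, against 0.05 for all genes tested. The 22 members that did not pass had log2 changes on either side of 0, and Vpreb1, Cd3g and Ptcra did not pass the filter.

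No member was called between the B220 sorts, although several stood higher in B220 HIGH. Of 12564 genes tested between B220 HIGH and B220 LOW, edgeR called 0 (0.0%), including 0 of the 24 members tested, while 880 genes (7.0%) and 7 members had an unadjusted p under 0.05. All 7 members (Satb1, Notch1, Bcl11a, Il7r, Bst1, Pou2af1 and Cd22) had higher means in B220 HIGH. For 6 of the 24 (25.0%, against 6.2% of all genes tested) every B220 HIGH library lay above every B220 LOW library, and for none did every library lie below, against 7.22%. The median log2 difference of the 24 members was 0.92, against -0.03 for all genes tested, and 18 of the 24 lay above 0. Same-numbered B220 libraries deviated together, and a fit blocked on that number called 79 genes (0.629%), with 0.581% of the genes tested higher and 0.0478% lower in B220 HIGH. They included 1 member, Bcl11a, higher in B220 HIGH. DESeq2 called 302 genes (2.14%), 1.94% being higher in B220 HIGH, among them Il7r, Bst1 and Cd22. The other 14 members did not pass the low count filter, some of them because counts lay in 1 or 2 libraries only, and are described by their counts.

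The largest loss among the priming genes was that of Bcl11a, a zinc finger factor needed for early lymphoid progenitors (gene ID 14025, GRCm38.p6 chr11:24076564-24173558). It stood at 563, 623 and 658 CPM in wt LSK and at 2.59, 11.7 and 1.67 CPM in iMLL-ENL total, groups that lay far apart. The means of 615 ± 48.0 and 5.31 ± 5.52 CPM (SD, n = 3 each) differed by a log2 change of -6.72 (SE 0.77, edgeR adjusted p = 0.000646). In the B220 sorts, Bcl11a had 0, 0.521 and 0.0601 CPM in B220 LOW and 4.67, 144 and 1.26 CPM in B220 HIGH. Every B220 HIGH library was above every B220 LOW library, but B220 HIGH replicate 2 was far above the other 2. The log2 difference was 8.09 (SE 2.24, edgeR adjusted p = 0.452), 7.63 with the replicate block (adjusted p = 0.00493) and 3.85 without B220 HIGH replicate 2 (adjusted p = 0.999). In B220 LOW the gene rested on 8 counts over 3 libraries.

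Satb1, a chromatin organizer that promotes lymphoid fates (gene ID 20230, chr17:51736187-51833290), was at 435, 538 and 330.4 CPM in wt LSK and at 35, 6.61 and 16.6 CPM in iMLL-ENL total. The groups did not overlap, and the log2 change was -4.34 (SE 0.57, edgeR adjusted p = 0.00108), from a mean of 435 ± 104 to 19.4 ± 14.4 CPM (SD, n = 3 each). B220 LOW had 22.7, 0.223 and 1.92 CPM, and B220 HIGH had 51.4, 68.8 and 41.9 CPM. All 3 B220 HIGH libraries were above all 3 B220 LOW libraries, where the values ranged widely (log2 difference 2.85, SE 1.22, adjusted p = 0.707, and 4.28 with adjusted p = 0.381 under the replicate block). Even in B220 HIGH the level stayed below that of each wt LSK library, a difference between tables that was not tested.

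Foxo1, a forkhead factor that activates Il7r and the Rag genes (gene ID 56458, chr3:52268337-52350109), stood at 62.5, 83.0 and 50.9 CPM in wt LSK and 16.4, 16.7 and 19.4 CPM in iMLL-ENL total. The leukemic values lay close together and below all wt LSK values (log2 change -1.74, SE 0.25, edgeR adjusted p = 0.0013). The B220 sorts overlapped, with 13.4, 15.8 and 43.1 CPM in B220 LOW and 16.0, 28.3 and 24.5 CPM in B220 HIGH (log2 difference -0.04, SE 0.57, adjusted p = 0.994).

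Il7r, the interleukin 7 receptor alpha chain on which mouse B and T cell development depends (gene ID 16197, chr15:9506159-9529941), had 29.6, 111 and 23.7 CPM in wt LSK and 7.0, 9.72 and 4.27 CPM in iMLL-ENL total. No leukemic value reached any wt LSK value, and wt LSK replicate 2 was the highest. The log2 change was -2.79 (SE 0.61, edgeR adjusted p = 0.00999) and -1.87 without wt LSK replicate 2 (adjusted p = 0.0202). Among the sorts, B220 LOW had 3.08, 0.893 and 8.90 CPM and B220 HIGH had 29.1, 128 and 225 CPM. B220 HIGH replicates 2 and 3 exceeded all wt LSK libraries, and the means of 4.29 ± 4.14 and 127 ± 97.9 CPM (SD, n = 3 each) differed 29.7-fold. The log2 difference of 4.96 (SE 1.08) had an edgeR adjusted p of 0.319 and a DESeq2 adjusted p of 1.76e-06. The adjusted p was 0.082 with the replicate block and 0.0326 without B220 HIGH replicate 1. With any other sorted library left out it was 0.384 to 0.849.

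Bst1, the stromal antigen CD157 of early B and myeloid cells (gene ID 12182, chr5:43818880-43843468), went the other way in whole marrow. It had 0.698, 3.57 and 0.765 CPM in wt LSK and 6.44, 14.1 and 12.6 CPM in iMLL-ENL total. Each leukemic library was above each wt LSK library (log2 change 2.91, SE 0.70, edgeR adjusted p = 0.0145), with adjusted p = 0.0665 without wt LSK replicate 1 and 0.0572 without replicate 3. B220 LOW had 10.4, 2.68 and 5.95 CPM and B220 HIGH had 13.8, 141 and 105 CPM, again without overlap. The log2 difference of 3.90 (SE 0.87) had an edgeR adjusted p of 0.309. The adjusted p was 0.398 with the replicate block (log2 difference 3.60) and 7.71e-05 in DESeq2. It was 0.356 to 0.9425 when a sorted library other than B220 HIGH replicate 1 was left out. It was 0.0225 without B220 HIGH replicate 1, whose value lay nearest to B220 LOW. Replicate 1 of B220 HIGH was also the lowest in summed neutrophil and monocyte markers, whose part in the values of Bst1 and Il7r was not tested. An exon of Bst1 overlaps one of Fbxl5, and the library kit did not mark strand.

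None of the 3 Ikaros family factors passed the test in either comparison. Ikzf1 (Ikaros, gene ID 22778, chr11:11684962-11772930) had 1154, 1315 and 1047 CPM in wt LSK cells, and its level in iMLL-ENL total was 896, 697 and 982 CPM. B220 LOW had 548, 350.4 and 612 CPM and B220 HIGH 753, 585 and 901 CPM. The wt LSK values were all above those of iMLL-ENL total, but the log2 change was small (-0.29, SE 0.20, adjusted p = 0.315), and the sorts overlapped (log2 difference 0.62, SE 0.30, adjusted p = 0.744). Per kilobase of the deposited gene width, Ikzf1 was also the highest of the 3 family members in wt LSK, with a mean of 136 CPM per kb, against 33.6 for Ikzf2 and 1.0 for Ikzf3.

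Ikzf2 (Helios, gene ID 22779, chr1:69531207-69687351) varied more between leukemic libraries than between groups. It had 406, 293 and 425 CPM in wt LSK, and the level in iMLL-ENL total was 789.8, 449.9 and 81.1 CPM. The sorts had 469.8, 294 and 101 CPM in B220 LOW and 563, 260.0 and 31.5 CPM in B220 HIGH. In all 3 leukemic groups replicate 1 was the highest and replicate 3 the lowest, and neither comparison was called (log2 0.36, SE 0.64, adjusted p = 0.713, and -0.01, SE 0.86, adjusted p = 0.999). Ikzf3 (Aiolos, gene ID 22780), which acts later in B cells, lay between 0 and 14 CPM in the 12 libraries, highest in wt LSK replicate 2, with adjusted p of 0.958 (log2 change 0.05, and 0.91 without wt LSK replicate 2) and 0.912.

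Notch1, the receptor that starts T lineage commitment (gene ID 18128, chr2:26457902-26503822), had 189.6, 289 and 141 CPM in wt LSK and 157, 115 and 215 CPM in iMLL-ENL total, with overlapping groups (log2 change -0.18, SE 0.31, adjusted p = 0.706, and 0.05 without wt LSK replicate 2). In B220 LOW it had 57.8, 55.6 and 73.3 CPM and in B220 HIGH 102, 103 and 76.1 CPM. The sorts did not overlap, though the lowest B220 HIGH library was close to the highest B220 LOW library (log2 difference 0.62, SE 0.27, adjusted p = 0.701, and 0.369 under the replicate block). Of 12 other genes of the Notch pathway 9 were tested in whole marrow, and 4 were higher and 3 lower, where 15.5% of all genes tested were higher and 15.1% lower. Among those called were Numb, a Notch inhibitor (log2 change 1.33, SE 0.29, adjusted p = 0.00976), and the coactivator Maml2 (-2.89, SE 0.63, adjusted p = 0.0103). The median log2 change of the 9 genes was 0.41.

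**Figure D2:**
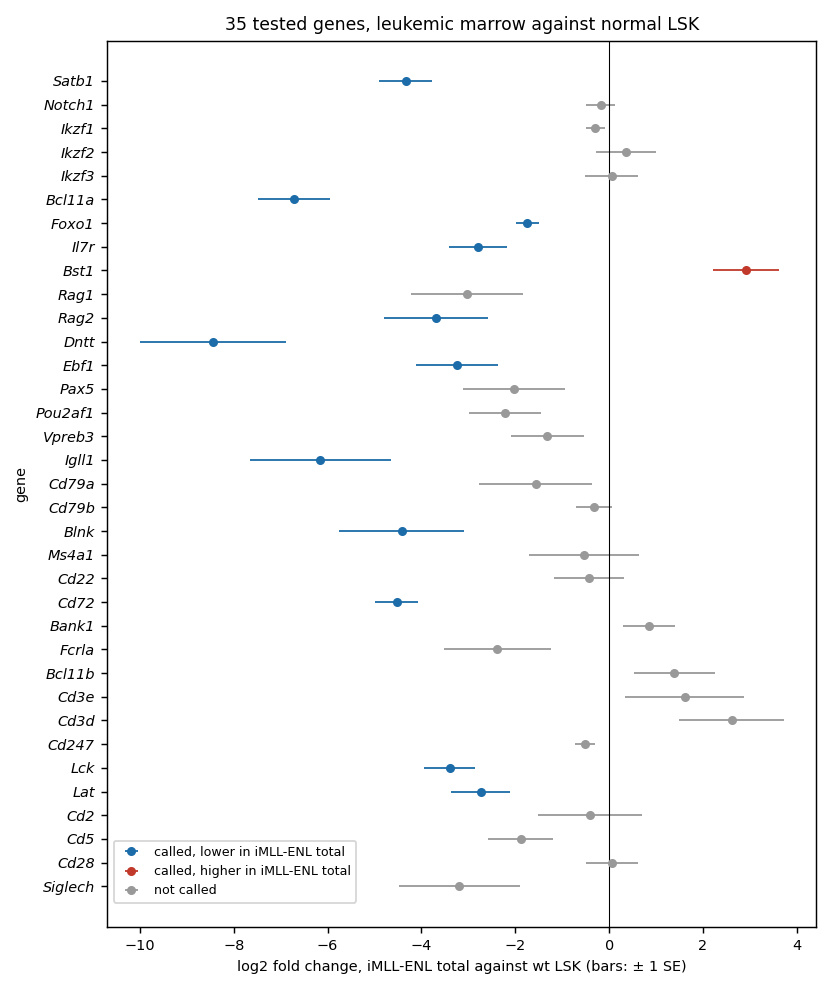
Log2 change with its standard error (x axis, iMLL-ENL total against wt LSK) for each of the 35 members tested (y axis, ordered by role), coloured where called at an adjusted p under 0.05 (12 blue and lower, 1 red and higher) and grey otherwise; bars are 1 SE. The 12 called members below 0 run from Dntt at -8.45 to Foxo1 at -1.74, and Bst1 at 2.91 is the called member above 0.

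Recombination genes were low in the 9 leukemic libraries, where none exceeded 9.59 CPM. Dntt, the polymerase that adds bases at receptor gene joints (gene ID 21673, chr19:41029275-41059525), had 311, 1053 and 262 CPM in wt LSK and 0, 4.11 and 0.176 CPM in iMLL-ENL total. Each wt LSK library exceeded each leukemic library by a wide margin (log2 change -8.45, SE 1.56, edgeR adjusted p = 0.00755, and -7.64, adjusted p = 0.0107, without wt LSK replicate 2). In B220 LOW Dntt had 1 count in all and in B220 HIGH 128 counts, at 2.11, 5.23 and 0 CPM. This is a ratio of 114 (95% counting interval 20.2 to 4550) that rested on B220 HIGH replicates 1 and 2, while replicate 3 had no count.

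Rag2, a subunit of the recombinase (gene ID 19374, chr2:101624712-101632528), had 36.1, 93.8 and 28.2 CPM in wt LSK and 9.59, 0.222 and 1.15 CPM in iMLL-ENL total. There was no overlap and the log2 change was -3.69 (SE 1.12, edgeR adjusted p = 0.0398), but 8 of 12 alternative fits lost the call, leaving out each of the wt LSK libraries and iMLL-ENL total replicates 2 and 3 among them (adjusted p between 0.0706 and 0.133). Rag2 lay at 2.42, 0.446 and 0.601 CPM in B220 LOW and at 3.66, 2.99 and 1.16 CPM in B220 HIGH, with overlap (log2 difference 1.24, SE 1.12, adjusted p = 0.899). Its exons overlap those of B230118H07Rik.

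Rag1, the catalytic subunit, lies 5723 bases from Rag2 (gene ID 19373, chr2:101638252-101649532). It had 10.5, 40.9 and 3.21 CPM in wt LSK and 0.463, 5.11 and 0.396 CPM in iMLL-ENL total. Replicate 2 was the highest in either group, the groups overlapped, and the log2 change of -3.03 (SE 1.20) was not called (adjusted p = 0.0944). It was called when iMLL-ENL total replicate 2 was left out (-5.19, adjusted p = 0.0284), whereas without wt LSK replicate 2 it was -1.75 (adjusted p = 0.327). The replicate block gave -3.31 (adjusted p = 0.00372), but same-numbered libraries of these groups come from other mice and share only a number. In the 6 sorted libraries Rag1 had 9 counts, all in B220 HIGH replicate 2.

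Of the 14 B lineage genes 13 were tested in whole marrow, and 4 were lower (Cd72, Igll1, Ebf1 and Blnk) and 0 higher, where 15.1% of all genes tested were lower. The calls of Igll1, Ebf1 and Blnk were lost without wt LSK replicate 2. Ebf1, the factor that specifies the B lineage (gene ID 13591, chr11:44618100-45008096), had 13.4, 61.9 and 12.3 CPM in wt LSK and 0.741, 5.39 and 2.03 CPM in iMLL-ENL total. The groups did not overlap (log2 change -3.24, SE 0.87, edgeR adjusted p = 0.0243), and without wt LSK replicate 2 the change was -2.18 (adjusted p = 0.0868), while without iMLL-ENL total replicate 3 the adjusted p was 0.0699. B220 LOW had 3 counts of Ebf1 in all and B220 HIGH 338, at 0, 14.1 and 2.78 CPM. That is a ratio of 101 (95% counting interval 34.1 to 490.4) to which B220 HIGH replicate 1 contributed no count.

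Pax5, which Ebf1 switches on and which locks in B identity (gene ID 18507), was at most 4.33 CPM in any library, reached in wt LSK replicate 2. In iMLL-ENL total it stood between 0.0440 and 1.06 CPM (log2 change -2.03, SE 1.08, adjusted p = 0.195, and -1.05 without wt LSK replicate 2), had no count in B220 LOW and at most 0.202 CPM in B220 HIGH. Pou2af1, a coactivator of Oct factors in B cells (gene ID 18985, chr9:51213690-51240079), had 8.81, 57.6 and 9.13 CPM in wt LSK and 3.34, 7.39 and 3.52 CPM in iMLL-ENL total. These groups did not overlap, and the log2 change of -2.22 (SE 0.76) had an edgeR adjusted p of 0.0598 and a DESeq2 adjusted p of 0.0042. Without wt LSK replicate 2 the change was -0.85 (adjusted p = 0.28). In the sorts Pou2af1 had 0, 1.19 and 0.481 CPM in B220 LOW and 0.0916, 19.2 and 14.7 CPM in B220 HIGH, where replicate 1 lay among the B220 LOW values (log2 difference 4.41, SE 1.78, adjusted p = 0.686, and 0.109 under the replicate block).

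The pre-B cell receptor pairs a heavy chain with the surrogate light chain, made of Igll1 (lambda 5) and Vpreb1, and signals through Cd79a, Cd79b and the adaptor Blnk. Igll1 (gene ID 16136, chr16:16860671-16863985) had 1.72, 46.4 and 4.03 CPM in wt LSK and 0.0463, 0.0556 and 0.484 CPM in iMLL-ENL total. All leukemic values were under all wt LSK values (log2 change -6.16, SE 1.5, edgeR adjusted p = 0.0168), but the change was -3.70 without wt LSK replicate 2 (adjusted p = 0.0603) and the adjusted p was 0.105 without iMLL-ENL total replicate 2. B220 LOW had no count of Igll1 in 3 libraries, and B220 HIGH had 0.183, 34.7 and 1.26 CPM. Against a floor of 3 counts over the B220 LOW group the mean of B220 HIGH was at least 182-fold higher, carried by replicate 2.

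Vpreb1 lies 4415 bases from Igll1 (gene ID 22362, chr16:16868401-16869255) and has a near-identical copy, Vpreb2, so that its counts are uncertain. It had 0.430, 4.94 and 0.612 CPM in wt LSK and 0.278, 0 and 0.0881 CPM in iMLL-ENL total, without overlap. B220 LOW had 0.131, 0 and 0.421 CPM of Vpreb1 and B220 HIGH 0, 9.12 and 0 CPM, all from replicate 2. Vpreb3, a chaperone of the pre-B receptor (gene ID 22364), had 1.77, 9.66 and 1.63 CPM in wt LSK and 2.18, 1.5 and 0.925 CPM in iMLL-ENL total, which overlapped (log2 change -1.32, SE 0.78, adjusted p = 0.238, and -0.09 without wt LSK replicate 2). Its B220 LOW values of 5.96, 0.223 and 8.0 CPM overlapped those of B220 HIGH at 1.56, 5.88 and 0 CPM, so this gene did not share the split of Igll1 (log2 difference -0.89, SE 1.67, adjusted p = 0.963, and -2.69 without B220 HIGH replicate 2).

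Blnk (gene ID 17060, chr19:40928927-40994221) had 6.39, 62.0 and 5.25 CPM in wt LSK and 0.232, 2.61 and 0.220 CPM in iMLL-ENL total. The groups did not overlap (log2 change -4.42, SE 1.33, edgeR adjusted p = 0.0389). The change was -2.47 without wt LSK replicate 2 (adjusted p = 0.157), and the adjusted p was 0.0695 and 0.0886 without iMLL-ENL total replicates 1 and 3. Blnk had no count in B220 LOW and 0, 23.6 and 3.19 CPM in B220 HIGH, at least 135-fold higher over the same kind of floor. Igll1 and Blnk passed the filter between the sorts once B220 HIGH replicate 1 was left out and were not called (adjusted p = 0.106 and 0.0696). They also passed without B220 LOW replicate 1, 2 or 3 and were not called. The adjusted p was then 0.406, 0.9425 and 0.750 for Igll1 and 0.398, 0.9425 and 0.754 for Blnk. With no count in B220 LOW, both passed only through B220 HIGH.

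Cd79a, a signalling chain of the receptor (gene ID 12518), had 1.02, 14.2 and 0.969 CPM in wt LSK and 0.371, 3.61 and 0.793 CPM in iMLL-ENL total, with overlap. Its log2 change of -1.56 (SE 1.20, adjusted p = 0.365) turned to 0.73 without wt LSK replicate 2 (adjusted p = 0.67). In the sorts it had 0.720, 0 and 0 CPM in B220 LOW and 0.0916, 4.78 and 0.101 CPM in B220 HIGH. Its partner Cd79b (gene ID 15985) was present in every library, at 15.3 to 41.5 CPM in wt LSK, 16.5 to 19.3 CPM in iMLL-ENL total, 6.13 to 12.3 CPM in B220 LOW and 6.73 to 9.51 CPM in B220 HIGH. Neither comparison called Cd79b (in whole marrow, log2 change -0.32, SE 0.38, adjusted p = 0.565, and 0.17 without wt LSK replicate 2; between the sorts, log2 difference 0.04, SE 0.64, adjusted p = 0.994).

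A set of 7 members exceeded 5 CPM in both wt LSK replicate 2 and B220 HIGH replicate 2 and were over 3 times the other libraries of their group in each. These were Ebf1, Vpreb3, Igll1, Blnk, Fcrla, Cd3e and Siglech, singled out after their values were seen. The promoter windows are shown for the 5 of them that hold the E-box or the octamer named next, so every window shown holds a match by choice. The 250 bases before the RefSeq start (GRCm38.p6) were searched on both strands for the E-box CACCTG, which factors of the E protein family can bind, and for the octamer ATTTGCAT, which Oct factors can bind. In all windows, 17.2% of 32851 held the E-box and 1.6% the octamer. Of the 38 genes 31 had at least 1 window, and 15 of their 38 windows (39.5%) held the E-box and 2 (Vpreb3 and Blnk) the octamer. Only the letters of the E-box and the octamer, on either strand, are in capitals below. Each sequence is read 5′ to 3′ in the direction of the gene, and a match is a description of letters only. The windows are Igll1 at chr16:16863986-16864235 (minus strand), Blnk at chr19:40994222-40994471 (minus), Fcrla at chr1:170927584-170927833 (minus), Siglech at chr7:55767934-55768183 (plus) and Vpreb3 at chr10:75948050-75948299 (plus).
Igll1: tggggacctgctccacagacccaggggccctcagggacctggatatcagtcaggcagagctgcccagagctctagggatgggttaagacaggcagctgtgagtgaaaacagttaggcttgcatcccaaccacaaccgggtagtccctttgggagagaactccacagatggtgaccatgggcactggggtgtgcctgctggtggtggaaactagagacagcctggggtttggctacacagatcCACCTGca
Blnk: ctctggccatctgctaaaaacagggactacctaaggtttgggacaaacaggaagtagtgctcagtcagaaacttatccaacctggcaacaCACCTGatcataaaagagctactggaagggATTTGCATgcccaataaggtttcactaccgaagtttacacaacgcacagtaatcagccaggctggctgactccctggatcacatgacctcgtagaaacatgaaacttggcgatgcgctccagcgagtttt
Fcrla: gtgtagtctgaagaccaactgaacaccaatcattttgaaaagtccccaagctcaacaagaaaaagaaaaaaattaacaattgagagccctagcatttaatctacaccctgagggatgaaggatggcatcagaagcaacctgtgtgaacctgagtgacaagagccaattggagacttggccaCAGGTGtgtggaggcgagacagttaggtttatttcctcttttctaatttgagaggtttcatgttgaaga
Siglech: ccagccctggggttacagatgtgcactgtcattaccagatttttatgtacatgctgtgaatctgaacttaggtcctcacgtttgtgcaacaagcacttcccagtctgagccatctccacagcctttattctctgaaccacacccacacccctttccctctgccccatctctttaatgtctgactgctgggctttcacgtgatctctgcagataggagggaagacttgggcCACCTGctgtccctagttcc
Vpreb3: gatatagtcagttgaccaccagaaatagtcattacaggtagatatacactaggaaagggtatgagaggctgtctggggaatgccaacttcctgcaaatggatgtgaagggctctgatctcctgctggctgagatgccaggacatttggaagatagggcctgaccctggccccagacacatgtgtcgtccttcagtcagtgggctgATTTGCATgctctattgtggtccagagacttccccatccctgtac
The E-box begins 8 bases before the RefSeq start used in Igll1, 20 in Siglech, 69 in Fcrla and 160 in Blnk. The octamer begins 45 bases before that start in Vpreb3 and 130 in Blnk. Of the windows shown, only those of Igll1 and Blnk end where the annotated gene begins. The start used for Siglech, Fcrla and Vpreb3 lies inside the annotated gene (chr7:55768154-55779448, chr1:170917594-170932216 and chr10:75943024-75949657). Their windows are therefore partly or wholly inside the gene. The windows of Ebf1 and Cd3e, which were singled out by the same rule on levels, hold neither the E-box nor the octamer and are not shown. Both genes are among those with the Ikaros family core and the ETS family core.

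**Figure D3:**
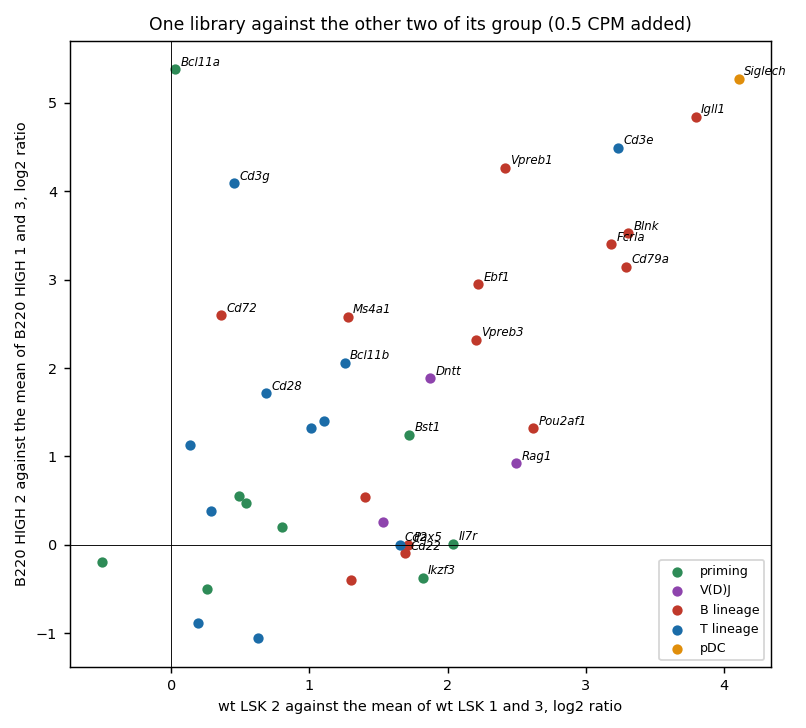
Log2 ratio of 1 library to the mean of the other 2 of its group, with 0.5 CPM added, for wt LSK replicate 2 (x axis) and B220 HIGH replicate 2 (y axis). Each point is a member coloured by role (V(D)J stands for the recombination genes and pDC for Siglech), members far from 0 are named, and Siglech, Igll1 and Cd3e lie farthest to the upper right.

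Among the surface and signalling genes of B cells, Cd72, an inhibitory coreceptor (gene ID 12517, chr4:43447724-43455102), had the smallest p of all members in whole marrow. It had 33.7, 41.4 and 30.5 CPM in wt LSK and 0.649, 2.06 and 1.41 CPM in iMLL-ENL total. The wt LSK values lay close together and far above the leukemic ones (log2 change -4.52, SE 0.46, edgeR adjusted p = 0.000268), so that this call did not turn on replicate 2. In B220 LOW it had 2.62, 4.24 and 1.08 CPM and in B220 HIGH 3.48, 14.1 and 0.354 CPM, with overlap (log2 difference 1.23, SE 1.24, adjusted p = 0.912, and -0.52 without B220 HIGH replicate 2). An exon of Cd72 overlaps one of Tesk1.

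Cd22, an inhibitory lectin of B cells (gene ID 12483), had 0.967, 4.50 and 1.12 CPM in wt LSK and 2.13, 0.833 and 1.37 CPM in iMLL-ENL total, with overlap (log2 change -0.42, SE 0.75, adjusted p = 0.709, and 0.53 without wt LSK replicate 2). B220 LOW had 0.0655, 0.223 and 0.0601 CPM, 5 counts in all, and B220 HIGH had 2.20, 4.19 and 6.83 CPM. Each B220 HIGH library was above each B220 LOW library (log2 difference 5.26, SE 1.29), with an edgeR adjusted p of 0.363, 0.177 with the replicate block and 0.000851 in DESeq2.

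Fcrla, an Fc receptor-like protein of B cells (gene ID 98752), had 0.376, 9.0 and 0.714 CPM in wt LSK and 0.510, 0.389 and 0.749 CPM in iMLL-ENL total. The log2 change of -2.38 (SE 1.14, adjusted p = 0.152) came to 0.10 without wt LSK replicate 2 (adjusted p = 0.954). B220 LOW had 0.655, 0.298 and 0.902 CPM of Fcrla and B220 HIGH 0, 7.97 and 0.607 CPM. The log2 difference of 2.27 (SE 1.72, adjusted p = 0.873) likewise turned to -0.81 without B220 HIGH replicate 2. Ms4a1, which encodes CD20 (gene ID 12482), had 4.24, 8.45 and 2.14 CPM in wt LSK and 0.324, 8.5 and 0.396 CPM in iMLL-ENL total. Within each leukemic group replicate 2 was the highest, with 0, 2.31 and 0 CPM in B220 LOW and 0, 2.49 and 0 CPM in B220 HIGH. Its log2 change in whole marrow was -0.53 (SE 1.17, adjusted p = 0.768) and, when iMLL-ENL total replicate 2 was left out, -3.58 (adjusted p = 0.0105). The scaffold Bank1 (gene ID 242248) lay between 6.07 and 31.6 CPM in all 12 libraries, with overlap in both comparisons (log2 0.85, SE 0.56, adjusted p = 0.287, and 0.52, SE 0.62, adjusted p = 0.932).

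Of 20 further genes of the B lineage and its receptor, 18 had a row and 16 were tested in whole marrow, where 5 were lower and 1, the tetraspanin Cd37, higher. For this list and the next, 15.1% of all genes tested were lower and 15.5% higher. Among those lower were Bach2, a repressor that favours lymphoid over myeloid fates (log2 change -5.25, SE 0.26, adjusted p = 1.37e-05), and the kinase Blk (-5.67, SE 1.23, adjusted p = 0.00937). The median log2 change of the 16 was -1.43. Between the sorts 0 of 11 tested were called, and with the replicate block 1 was, Cd180 (log2 difference 2.68, adjusted p = 0.0465). Of 16 further priming genes 15 were tested in whole marrow, with 7 lower and 1, the factor Myb, higher. The smallest p belonged to the receptor chain Il2rg at a log2 change of -1.56 (SE 0.19, adjusted p = 0.000655), the kinase Jak3 at -1.90 (SE 0.25, adjusted p = 0.000899) and the receptor Flt3 at -4.67 (SE 0.63, adjusted p = 0.00124).

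Of 11 T lineage genes 9 were tested in whole marrow, and 2, Lck and Lat, were lower and 0 higher, a share near the 15.1% of all genes tested that were lower. Lck, the Src family kinase that starts receptor signalling (gene ID 16818, chr4:129548344-129573641), had 10.3, 25.9 and 13.3 CPM in wt LSK and 0.973, 2.28 and 0.925 CPM in iMLL-ENL total. The groups did not overlap (log2 change -3.40, SE 0.54, edgeR adjusted p = 0.0023). B220 LOW had 4.39, 9.45 and 0 CPM and B220 HIGH 1.37, 2.64 and 0 CPM, so replicate 3 lacked Lck in both sorts (log2 difference -1.75, SE 1.89, adjusted p = 0.926, and -2.83 without B220 HIGH replicate 2).

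Lat, the membrane adaptor downstream of Lck (gene ID 16797, chr7:126363827-126369705), had 16.6, 22.3 and 11.9 CPM in wt LSK and 1.3, 4.61 and 0.969 CPM in iMLL-ENL total. These values did not overlap (log2 change -2.74, SE 0.62, edgeR adjusted p = 0.0114). In the sorts Lat had 9.56, 6.4 and 1.62 CPM in B220 LOW and 9.16, 4.43 and 10.4 CPM in B220 HIGH, which overlapped (log2 difference 0.54, SE 0.81, adjusted p = 0.947). NK cells also use Lck and Lat, and the summed NK markers were 69.3 to 176 CPM in wt LSK and 12.9 to 28.1 CPM in iMLL-ENL total. Most of the wt LSK sums came from a single gene, Nkg7, at 62.7, 145 and 72.2 CPM. Nkg7 had 5.51, 12.8 and 4.93 CPM in iMLL-ENL total. Of 7 NK markers tested in whole marrow, Nkg7 was called lower and the other 6 were not called. The part of NK cells in the results for Lck and Lat was not tested.

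None of the CD3 chains was called in whole marrow, where Cd3e and Cd3d had higher means in iMLL-ENL total. Cd3e (gene ID 12501) had 0.376, 7.19 and 0.255 CPM in wt LSK and 2.87, 15.8 and 2.16 CPM in iMLL-ENL total, with overlap through wt LSK replicate 2. The log2 change of 1.61 (SE 1.27) was not called (adjusted p = 0.378), whereas it was 4.49 without wt LSK replicate 2 (adjusted p = 0.0347). The replicate block gave 2.42 (adjusted p = 0.0245), but it joins libraries of different mice that share only a number. Cd3e then had 1 count in B220 LOW and 0.0916, 11.8 and 0 CPM in B220 HIGH, so the ratio of 213 (95% counting interval 37.8 to 8431) rested on 1 library.

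Cd3d (gene ID 12500), at most 4.44 CPM in any library, had 0.107, 0.768 and 0.153 CPM in wt LSK, whereas iMLL-ENL total reached 0.741, 4.44 and 0.484 CPM. The log2 change of 2.61 (SE 1.12) was not called (adjusted p = 0.113, and 3.85 with adjusted p = 0.089 without wt LSK replicate 2), and the gene lay between 0 and 0.997 CPM in the sorts. Cd3g (gene ID 12502), 1337 bases from Cd3d, had 0.107, 0.329 and 0.102 CPM in wt LSK and 0.0463, 0.333 and 0.220 CPM in iMLL-ENL total. B220 LOW had 0, 0 and 0.0601 CPM of Cd3g and B220 HIGH 0, 8.02 and 0 CPM, so that 1 library held nearly all of it. The zeta chain Cd247 (gene ID 12503), which NK cells share, differed from the rest of the complex in being present in all libraries. It had 39.1, 46.9 and 42.5 CPM in wt LSK and 25.8, 28.6 and 26.2 CPM in iMLL-ENL total, without overlap, at a log2 change of -0.52 (SE 0.20, adjusted p = 0.0906, and 0.039 in DESeq2). The sorts gave 20.4, 13.5 and 15.3 CPM for Cd247 in B220 LOW and 24.6, 14.4 and 29.3 CPM in B220 HIGH (log2 difference 0.54, SE 0.45, adjusted p = 0.886).

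Bcl11b, the factor that seals T lineage commitment (gene ID 58208), had 3.71, 6.09 and 0.816 CPM in wt LSK and 4.49, 18.1 and 2.51 CPM in iMLL-ENL total. B220 LOW had 5.04, 35.5 and 13.1 CPM and B220 HIGH 6.23, 26.4 and 5.66 CPM. Replicate 2 was the highest library of every group, both pairs of groups overlapped, and neither was called (log2 1.39, SE 0.87, adjusted p = 0.266, and -0.46, SE 0.87, adjusted p = 0.964, the latter -1.57 without B220 HIGH replicate 2). The level in the leukemic groups did not come with that of the pre-T cell receptor chain Ptcra (gene ID 19208), which had 2 counts in wt LSK replicate 2, 3 in B220 HIGH replicate 2 and 0 elsewhere.

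Of the T cell surface genes, Cd5, an inhibitory receptor (gene ID 12507), had 3.54, 2.63 and 1.17 CPM in wt LSK and 0.695, 0.333 and 0.749 CPM in iMLL-ENL total. The values did not overlap, and the log2 change of -1.88 (SE 0.69) had an edgeR adjusted p of 0.0723 and a DESeq2 adjusted p of 0.0377. Cd28, the costimulatory receptor (gene ID 12487), overlapped in whole marrow at 6.78 to 15.6 CPM in wt LSK, where iMLL-ENL total ranged over 5.42 to 20.1 CPM (log2 change 0.06, SE 0.55, adjusted p = 0.948). Between the sorts Cd28 had 4.32, 0 and 0 CPM in B220 LOW and 2.47, 21.7 and 10.1 CPM in B220 HIGH (log2 difference 3.19, SE 1.79, adjusted p = 0.804, and 2.36 without B220 HIGH replicate 2). Cd2 (gene ID 12481), an adhesion receptor, was at most 2.41 CPM, had a log2 change of -0.41 in whole marrow (SE 1.11, adjusted p = 0.81, and 0.80 without wt LSK replicate 2) and had no count in any of the 6 sorted libraries.

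A list of 17 further T lineage genes had 14 tested in whole marrow, with 7 lower and 1, the adaptor Lcp2, higher, where 15.1% of all genes tested were lower and 15.5% higher. The smallest p belonged to Cd27, a TNF receptor family member (log2 change -5.19, SE 0.20, adjusted p = 7.56e-06), Prkcq, a protein kinase C of T cells (-5.51, SE 0.41, adjusted p = 6.63e-05), and the kinase Fyn (-3.71, SE 0.44, adjusted p = 0.00054). The median log2 change of the 14 was -2.08, and between the sorts 0 of 9 tested were called.

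Siglech (gene ID 233274, chr7:55768154-55779448) had 2.31, 74.7 and 5.41 CPM in wt LSK and 2.27, 4.89 and 0.749 CPM in iMLL-ENL total, with overlap. The log2 change of -3.19 (SE 1.28, adjusted p = 0.0988) became -0.48 without wt LSK replicate 2 (adjusted p = 0.724). B220 LOW had 1 count and B220 HIGH had 0.458, 66.7 and 2.02 CPM, so each B220 HIGH library was above each B220 LOW library. The ratio of 1236 (95% counting interval 221 to 48857) was set by replicate 2, which held 1339 of the 1384 counts. Siglech did not pass the filter in the full fit of the sorts, and without B220 HIGH replicate 1 it passed and was called (log2 difference 10.26, adjusted p = 0.0401). It also passed without B220 LOW replicate 1, 2 or 3 and was not called (adjusted p = 0.397, 0.9425 and 0.754). Siglech could pass only through B220 HIGH, where it is high, so that call adds no separate support. The 12 other markers of plasmacytoid dendritic cells summed to 801, 1357 and 1194 CPM in B220 HIGH, to which Runx2 and Tcf4, also found in other cells, gave 552 and 295 CPM in replicate 2. They summed to 803, 821 and 923 CPM in B220 LOW, where the lowest value was close to that of B220 HIGH replicate 1. The sums were 1338, 1869 and 1253 CPM in wt LSK and 1184, 1116 and 1111 CPM in iMLL-ENL total.

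**Figure D4:**
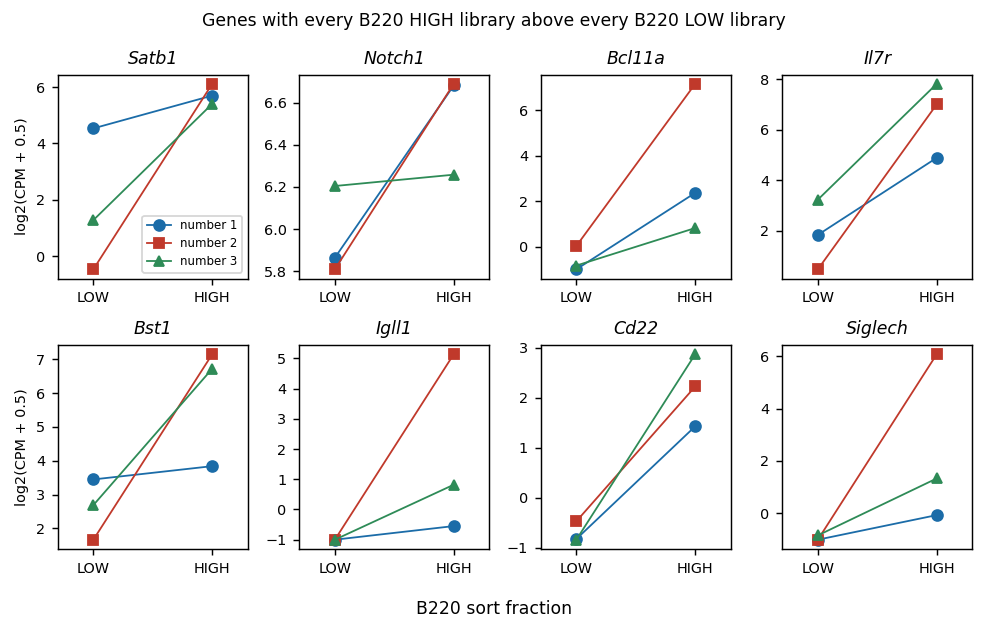
Level in each B220 LOW and B220 HIGH library (points, joined by replicate number) for 8 members whose B220 HIGH libraries all lie above the B220 LOW libraries, as log2(CPM + 0.5) on a y axis that differs between panels. Of these, 6 were tested (25.0% of the 24 members tested, against 6.2% of all genes tested), whereas Igll1 and Siglech did not pass the filter. Il7r and Cd22 have their highest point in B220 HIGH replicate 3, and the others in B220 HIGH replicate 2. Cd22 stays at 2.20, 4.19 and 6.83 CPM in B220 HIGH.

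The same replicate number was often the highest in the 3 leukemic groups. For 9 of the 20 members whose highest library reached 1 CPM in each of these groups (45.0%, against 24.4% of 12021 genes) the same number was the highest in iMLL-ENL total, B220 LOW and B220 HIGH. It was number 1 for Ikzf2, Rag2 and Bank1, number 2 for Pou2af1, Ms4a1, Cd72, Bcl11b and Lck, and number 3 for Ikzf1. The labels do not say what the number stands for, and wt LSK libraries carry the same numbers from other mice.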

How the data were processed

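Per the labels' protocols, RNA was purified with PicoPure and libraries were made with the NuGen Ovation kit, which does not mark strand. The authors deposited raw read counts per gene in 2 tables, each with the gene's width in bases (a value of another kind, used only for levels per kilobase). The submitters' processing notes name edgeR, GRCm38 and mm10. The aligner and counter were not given in the sources used here. Normalized tables the authors also deposited were not used here.

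The 38 members and all lists were chosen with earlier results of these data known. Of 24028 gene IDs 23968 matched a symbol and 60 did not. Counts were divided by the library total (CPM), so precision varies with totals of 10921521 to 22706882, and intervals and floors cover counting error only. Each comparison was fitted on its own 6 libraries with edgeR 4.0.16 in R 4.3.3 (TMM factors, filterByExpr with a minimum count of 10, robust quasi-likelihood test, two-sided, Benjamini-Hochberg adjustment over all genes tested, threshold 0.05), and tables were not tested against each other. The standard error is the size of the log2 change over the square root of the F statistic. DESeq2 1.42.0 was an alternative, with other factors, no filter, a minimum fold of 2, the replicate block and each library left out. A floor is 3 counts over a group, and intervals for counts of 1 to 3 are exact binomial at 95%.

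Every library's value is given for members called in a comparison, members whose groups did not overlap with at least 10 counts in 1 library, and members above 5 CPM in 1 library that differed over 10-fold within a group. From other lists up to 3 called genes with the smallest p are named, except 2 that are not reported here. Same-numbered B220 libraries deviated together from their group means (correlations of 0.394, 0.199 and 0.306 across 12564 genes), so the replicate block is given for the 7 members with an unadjusted p under 0.05 there. For Rag1 and Cd3e it is also given in whole marrow, where the numbers do not pair mice. That pairing comes from the data, not the labels. On simulated counts of the whole marrow comparison (13614 genes) the test recovered 6.94%, 59.4% and 85.2% of 2-fold, 4-fold and 8-fold changes, and on those of the B220 comparison (12220 genes) 4.55%, 42.4% and 71.4%. Each simulation changed 200 genes, whereas 4221 of 13811 were called in the real whole marrow data. The adjusted p depends on that share, so these recoveries need not hold for the data. Promoter sequences are those of RefSeq (GRCm38.p6). Exons of 16 members overlap another gene, so their counts are uncertain. Among members called in whole marrow these are Satb1, Bcl11a, Foxo1, Bst1, Rag2, Cd72, Lck and Lat. Ighm, Igkc, Ighd and Ly6g were not analysed here.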

Additional observations from a re-analysis of the deposited data

How the results depend on the processing

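In whole marrow, 8 of the 13 calls (Satb1, Bcl11a, Foxo1, Il7r, Dntt, Cd72, Lck and Lat) kept an adjusted p under 0.05 in all 12 alternative fits, all 13 kept their direction, and Bst1, Rag2, Ebf1, Igll1 and Blnk lost the call in at least 1. Members called numbered 10 to 16 across the alternatives, with 15 under the replicate block, and 10 to 13 when a library was left out. Genes called fell from 4221 to 2047 when a fold of at least 2 was required, to 2658 without wt LSK replicate 1 and to 2636 without wt LSK replicate 3, in a range of 2636 to 4528 over the libraries left out. Same-numbered libraries of that comparison did not all deviate together (correlations of 0.0148, 0.159 and -0.0357), so they share only a number, and the block called 4048 genes. Upper-quartile factors moved the median log2 change of all genes from 0.05 to -0.11. Between the B220 sorts, where 0 genes were called, 22 were called with no filter on low counts, 79 with the replicate block, 302 by DESeq2, and 0 to 96 with a library left out (96 without B220 HIGH replicate 1, 3 without B220 LOW replicate 1). Members called there were 1 with the replicate block, 3 by DESeq2, and 0 to 3 with a library left out (Il7r, Bst1 and Siglech without B220 HIGH replicate 1). The cause of these differences was not tested. Depth limits members with 1 to 3 counts in a group.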
